A study of Mus musculus with 15 samples.

Results

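The cytosolic ribosomal protein genes were represented by 103 of the 45037 non-control probe sets of the array, which belonged to 48 genes. A probe set was taken where its annotation gave a single symbol of the Rpl or Rps series or of Rplp0 and Rplp2, and mitochondrial ribosomal proteins and the Rps6 kinases were left out. The large subunit had 42 of these probe sets, the small subunit 51, and paralogs with names ending in l or l1 had 10. Probe sets that also carried the symbol of another gene were not members, and Rplp1 had no probe set with a single symbol.

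Total RNA of mouse forebrain had been hybridised to 15 Affymetrix mouse whole-genome arrays, on which short probes are combined into probe sets. Arrays VEH-Sham 1 to 5 came from samples that received vehicle 1 h ahead of sham surgery. Arrays VEH-HI 6 to 10 received vehicle 1 h ahead of hypoxic ischemia, a combined loss of oxygen and blood flow. Arrays EPO-HI 11 to 15 received erythropoietin, the hormone of red cell formation, at 5 U per g into the peritoneum 1 h ahead of the same injury. The sources used here give no strain, age, sex, interval from injury to sampling or array batch, and no group received erythropoietin with sham surgery. The labels do not call the samples separate animals, so the p-values cover only the spread among these samples, and that spread may be technical.

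Ribosomal proteins build, with ribosomal RNA, the small subunit that reads the mRNA and the large subunit that joins amino acids. Most of their mRNAs are abundant in every cell and begin with a cytosine followed by a run of pyrimidines, the 5′ terminal oligopyrimidine or TOP motif. Through this motif their translation follows the mTOR kinase, and the amount of TOP mRNA can therefore differ from the amount of protein made from it. In the brain the proteins are made in neurons and in glia, and local ribosomes also lie in dendrites and axons. The array measures mRNA, and a bulk sample cannot tell more cells of a type apart from more RNA per cell.

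Start sites were searched for pyrimidine runs. RefSeq start sites on mouse assembly GRCm38.p6 were held for 42 of the 48 genes. An unbroken run of 5 or more C or T bases covered the start on the coding strand in 13 of the 42 genes (31.0%), against 11.8% of the 27025 genes of the table. The search is looser than the TOP motif in that it asks neither for a cytosine at the start nor for a run after it. It is stricter in that the run must cover the annotated start base, so runs beside that base are missed. The share is therefore no count of TOP genes. In Rpl39 the start is the last base of the run. The word CCGGAA, searched on both strands between 250 bases before and 50 bases after the start, lay in 27 of the 42 (64.3%), against 16.7% of all genes. These matches describe letters in a window and not a bound factor. Windows of 30 bases are printed for genes whose arrays are described here, to set genes with a pyrimidine run beside 1 without it. They start 15 bases before the start site, and the run that covers the start is in capitals. They lie at chr17:33955651-33955680 (minus strand, Rps18), chr7:141447636-141447665 (plus, Rplp2), chr9:120571502-120571531 (plus, Rpl14), chr4:86857353-86857382 (minus, Rps6), chr3:90213634-90213663 (minus, Rps27), chrX:37085208-37085237 (minus, Rpl39) and chr9:66946071-66946100 (plus, Rps27l).
Rps18: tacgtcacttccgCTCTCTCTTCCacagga
Rplp2: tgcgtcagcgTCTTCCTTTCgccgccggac
Rpl14: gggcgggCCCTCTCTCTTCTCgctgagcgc
Rps6: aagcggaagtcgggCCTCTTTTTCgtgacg
Rps27: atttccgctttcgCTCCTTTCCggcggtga
Rpl39: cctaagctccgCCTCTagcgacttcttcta
Rps27l: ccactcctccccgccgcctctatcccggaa
Rps27l, the paralog with the largest difference below, has no run over its start in this window, whereas its close relative Rps27 has 1 of 9 bases. That contrast hangs on 1 base, since the annotated start of Rps27l is a g and cctct begins at the base after it. A second annotated start of Rps27l, not printed, also has no run over it.

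Values are given as log2(intensity + 16), and a difference of 1 on this scale is a 2-fold change for a bright probe set. The 27022 brightest non-control probe sets were tested with limma, and "rose" or "fell" below means a Benjamini-Hochberg adjusted p under 0.05 over all of them. Of the 103 ribosomal protein probe sets 92 passed this filter on low values, which left 46 genes. The 11 others had means of 4.28 to 5.24, near the bottom of the scale. Among them were the only probe sets of Rps16, a core small subunit protein, and of Rpl3l, the muscle form of Rpl3, which lay between 4.13 and 5.12 on all arrays.

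The arrays differed in a way that the labels do not record, and VEH-Sham 5 is therefore shown apart. The median intensity was 55.4 to 58.0 on VEH-Sham 1 to 4, 40.0 on VEH-Sham 5 and 39.3 to 44.5 on the 10 injury arrays, although all arrays had been scaled to 1 trimmed mean. The ratio of the 3′ to the 5′ control probe set of Gapdh is a measure of RNA integrity. It was 0.63 to 0.72 on VEH-Sham 1 to 4 and 0.72 to 0.76 on the others. The ranges overlapped, with 0.7193 on VEH-Sham 3 and 0.7159 on EPO-HI 11. The same ratio for Actb, the beta-actin gene, was 1.28 to 1.40 on VEH-Sham 1 to 4 and 1.24 to 1.50 on the injury arrays. The comparison with sham therefore rests mostly on arrays that stand apart in median intensity. VEH-Sham 5 is the single sham array with a median like those of the injury arrays, and differences from it alone are given beside the main results.

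Ribosomal protein mRNAs were higher after hypoxic ischemia with vehicle than after sham surgery. Of the 92 probe sets tested, 63 rose, 2 fell and 27 did not pass, whereas 9.85% of all tested probe sets rose and 13.0% fell. The median difference was 0.40 over the members and -0.06 over all tested probe sets, and member differences ran from -0.73 to 1.08. The difference was below 0 in 11 of the 92, against 57.7% of all tested probe sets. The counts were close in both subunits: 29 of 41 large subunit probe sets rose and 1 fell, and 30 of 43 small subunit probe sets rose and 1 fell, each with a median of 0.40. Of the 8 paralog probe sets 4 rose and none fell, with a median of 0.29. With VEH-Sham 5 as the only sham array, assumed to vary like the other groups, the member median was 0.21 and limma called 0 of the 90 members that passed the filter there and 7 of all 27022 probe sets. At an unadjusted p under 0.05 there were 15 members, against 6.53% of all probe sets. A term that set VEH-Sham 1 to 4 apart rests on the same differences from VEH-Sham 5 by construction and only its error differs. It called 0 members and 3 probe sets in all, with 18 members at an unadjusted p under 0.05, against 6.79% of all probe sets. Under quantile normalization 41 members rose and 2 fell, with a median of 0.19. With array medians made equal, 78 members rose and 0 fell, and the median was 0.71 over the members and 0.22 over all tested probe sets. The shares of all tested probe sets that rose or fell under these normalizations are not given here. These counts alone therefore do not set the members apart from the array.

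Counted by gene, with the brightest probe set standing for each, 35 of the 46 genes rose, 1 fell and 10 did not pass. Over the 13168 genes of the array so represented, 11.9% rose and 11.5% fell. Of the large subunit genes 18 of 22 rose and 1 fell, of the small subunit genes 15 of 19 rose, and of the paralogs 2 of 5 rose. The genes that did not pass were Rpl12, Rpl14, Rpl37, Rpl39l, Rpl7l1, Rps24, Rps27, Rps29, Rps4l and Rps6. With array medians made equal, a setting that moved all tested probe sets upward as given above, several of these passed, with limma adjusted p-values of 0.0376 for Rps27 (0.93), 0.0171 for Rpl12 (0.44), 0.00834 for Rps24 (0.50), 0.0135 for Rps29 (0.50), 0.00484 for Rpl7l1 (0.54) and 0.046 for Rps4l (0.51).

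**Figure D1:**
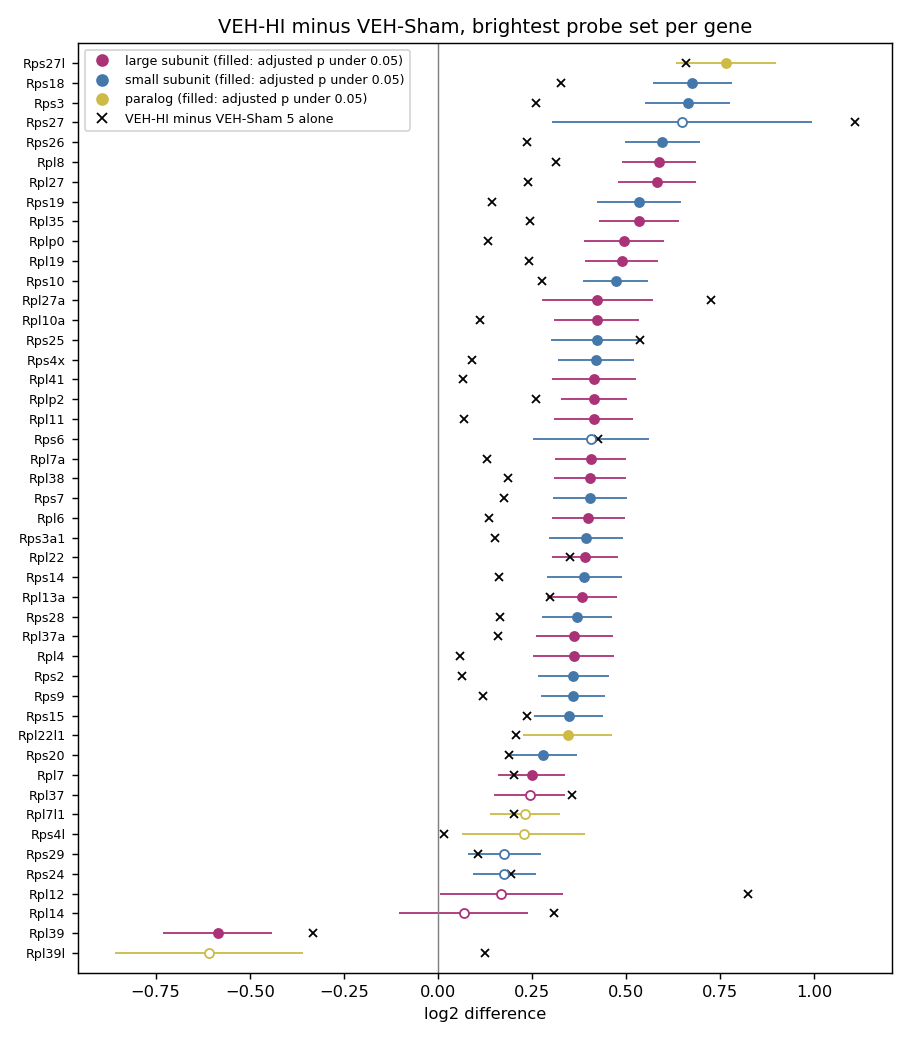
Log2 difference between VEH-HI and VEH-Sham (n = 5 arrays each, bars are SE) for the brightest tested probe set of each of 46 ribosomal protein genes, filled where the limma adjusted p was under 0.05; crosses give the difference of VEH-HI from VEH-Sham 5 alone. 35 genes rose and Rpl39 fell, and most crosses lie closer to 0 than the points.

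The shift was also seen in the mean over members on each array. The 70 member probe sets with a mean of at least 9 averaged 12.13, 12.03, 11.96, 11.96 and 12.32 on VEH-Sham 1 to 5. Their averages were 12.47, 12.46, 12.43, 12.74 and 12.61 on VEH-HI 6 to 10, and 12.50, 12.44, 12.31, 12.35 and 12.61 on EPO-HI 11 to 15. VEH-Sham 5 was the highest sham array; the 5 VEH-HI arrays lay above it, and EPO-HI 13 lay just below it. The group means were 12.08 ± 0.15, 12.54 ± 0.13 and 12.44 ± 0.12 (SD, n = 5). All 103 probe sets together took 3.28% to 3.60% of the array's summed intensity on VEH-Sham 1 to 4, 3.98% on VEH-Sham 5, 4.25% to 4.94% on the VEH-HI arrays and 3.98% to 4.65% on the EPO-HI arrays.

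**Figure D2:**
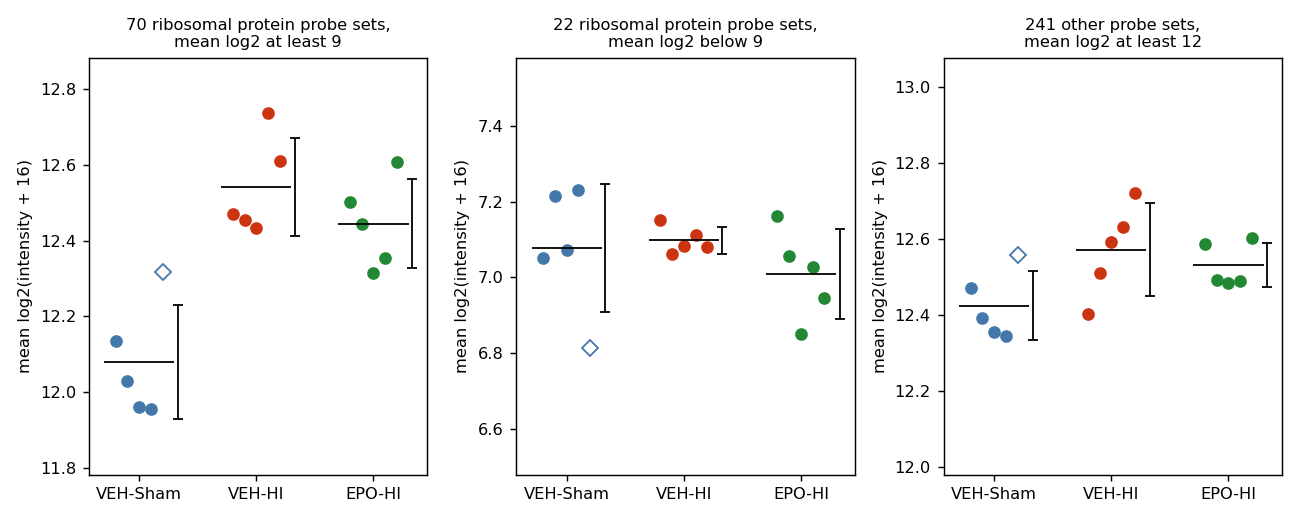
Mean log2(intensity + 16) per array of 70 ribosomal protein probe sets with a mean of at least 9, of 22 below 9, and of 241 other probe sets with a mean of at least 12; points are arrays, the open diamond is VEH-Sham 5, lines are group means and bars SD. The bright ribosomal protein probe sets averaged 11.96 to 12.32 on sham arrays and 12.43 to 12.74 on VEH-HI arrays, and the dim ones showed no such step.

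The brightness of a probe set moved with its difference. Among the 70 probe sets with a mean of at least 9, a limit chosen after the values were seen, 59 rose and none fell, with a median of 0.41. Among the 22 dimmer ones 4 rose and 2 fell, with a median of 0.09. Over all tested probe sets, bright and dim together, 9.85% rose and 13.0% fell. Shares of all tested probe sets above and below 9 are not given here. VEH-Sham 5 stood above VEH-Sham 1 to 4 by a median of 0.31 in the brighter probe sets and differed by -0.31 in the dimmer ones. Other very bright probe sets moved in the same direction by less: of 241 non-members with a mean of at least 12, 66 rose and 8 fell, and their median was 0.14. The 56 members in that range of brightness had 51 rises, no fall and a median of 0.41. Against VEH-Sham 5 alone the medians were 0.02 for those non-members and 0.19 for those members. When each array was centred on these bright non-members, a setting chosen after seeing the data, 54 members rose and 4 fell. The median was then 0.25 over the members and -0.21 over all tested probe sets, and Rps25 and Rpl22l1 were among the genes that no longer passed. The shares of all tested probe sets that rose or fell under this centring are not given here, so the counts describe the setting only. The part of the array difference in these results was not tested.

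Overlap between arrays was counted member by member. All 5 VEH-HI arrays lay above all 5 VEH-Sham arrays in 41 of 92 member probe sets and below them in 0, whereas 3.71% of all tested probe sets lay wholly above and 4.51% wholly below. Against VEH-Sham 5 alone, all 5 VEH-HI arrays were higher in 57 members and lower in 2, where the shares over all tested probe sets were 18.3% and 15.6%. Against VEH-Sham 1 to 4 they were higher in 62 members and lower in 3, where the shares over all tested probe sets were 9.69% and 16.6%. The mean of VEH-HI was above VEH-Sham 5 in 85 of the 92.

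Rps27l had the largest rise of the family. It encodes a close relative of the small subunit protein Rps27 and is known as a gene that p53 can induce. Its brightest probe set (1435429_x_at) read 9.84, 9.84, 9.71, 9.80 and 9.93 on VEH-Sham 1 to 5, then 10.98, 10.64, 10.27, 10.78 and 10.26 on VEH-HI 6 to 10. On EPO-HI 11 to 15 it read 10.58, 10.41, 10.08, 10.17 and 10.69. Every injury array was above every sham array, and VEH-Sham 5 lay near the other sham arrays. The difference between VEH-HI and VEH-Sham was 0.77 ± 0.13 (SE), a 1.70-fold change (limma adjusted p = 0.00114). Against VEH-Sham 5 alone it was 0.66. The other probe sets of the gene rose by 1.08 ± 0.15 (1423254_x_at, adjusted p = 0.000346) and 0.87 ± 0.14 (1450925_a_at, adjusted p = 0.000872), also without overlap, and stood 0.83 and 0.66 above VEH-Sham 5. The 2 probe sets ending in _x_at hold probes that can match other sequences, and cross-hybridisation was not tested. Those differences from VEH-Sham 5 compare with a median of 0.21 over the members.

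Rps27 itself could not be read with the same precision. Its brightest probe set (1460699_at) read 6.70, 6.88, 7.43, 6.93 and 6.41 on the sham arrays and 6.68, 6.44, 8.13, 8.17 and 8.18 on the VEH-HI arrays. VEH-HI 8, 9 and 10 were high, whereas VEH-HI 6 and 7 lay within the sham range. The difference of 0.65 ± 0.35 did not pass (limma adjusted p = 0.175). Whether Rps27l and Rps27 differ in their response was not tested.

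Core small subunit genes followed with rises of about the same size. Rps18, a protein of the head of the small subunit, read 12.39, 12.31, 12.33, 12.23 and 12.75 on VEH-Sham 1 to 5 (1455572_x_at). It read 12.94, 13.02, 12.89, 13.35 and 13.18 on VEH-HI 6 to 10, and 13.05, 12.94, 12.78, 12.84 and 13.04 on EPO-HI 11 to 15. VEH-Sham 5 was the highest sham array, and all injury arrays were still above it. The rise was 0.68 ± 0.11 (limma adjusted p = 0.00061), or 1.60-fold, and 0.33 against VEH-Sham 5. All 3 tested probe sets of Rps18 rose.

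Rps3, which lines the mRNA entry channel and has a second role in DNA repair, and Rps26, at the mRNA exit channel, also rose without overlap. Rps3 (1435151_a_at) read 11.89, 11.82, 11.54, 11.74 and 12.25 on the sham arrays and 12.46, 12.45, 12.29, 12.77 and 12.60 on the VEH-HI arrays, a rise of 0.66 ± 0.11 (limma adjusted p = 0.00109). Rps26 (1415876_a_at) read 11.88, 11.99, 11.91, 11.88 and 12.36 on the sham arrays and 12.51, 12.49, 12.50, 12.78 and 12.72 on the VEH-HI arrays, a rise of 0.60 ± 0.10 (adjusted p = 0.00098). In both genes VEH-Sham 5 stood between the other sham arrays and the VEH-HI arrays. The differences from VEH-Sham 5 were 0.26 and 0.24.

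Rps19, the gene most often mutated in Diamond-Blackfan anaemia, a failure of red cell formation, had a sham array inside the VEH-HI range. Its probe set (1449243_a_at) read 11.98, 11.90, 11.85, 11.99 and 12.42 on VEH-Sham 1 to 5 and 12.42, 12.38, 12.50, 12.77 and 12.72 on VEH-HI 6 to 10. It rose by 0.53 ± 0.11 (limma adjusted p = 0.00339), but only 0.14 separated VEH-HI from VEH-Sham 5. Rps6, the substrate of the S6 kinases downstream of mTOR, differed by 0.41 ± 0.15 and did not pass (1416142_at, adjusted p = 0.0592). Under quantile normalization that difference was 0.45 with an adjusted p of 0.0447, and with array medians made equal it was 0.69 with an adjusted p of 0.00512.

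Rps24, another Diamond-Blackfan gene, and Rps29, a zinc-binding protein of the small subunit head, were among the small subunit genes that did not pass. Rps24 had 1 rise among 6 tested probe sets, and its brightest differed by 0.18 ± 0.08 (1436064_x_at, limma adjusted p = 0.13). The brightest probe set of Rps29 differed by 0.18 ± 0.10 (1438859_x_at, adjusted p = 0.187), although 2 of its 3 tested probe sets rose.

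In the large subunit Rpl8, which lies near the peptidyl transferase centre, had the largest rise by brightest probe set. It read 11.89, 11.84, 11.68, 11.56 and 12.08 on VEH-Sham 1 to 5 (1417762_a_at). On VEH-HI 6 to 10 it read 12.45, 12.38, 12.32, 12.43 and 12.41, and on EPO-HI 11 to 15 it read 12.35, 12.26, 11.99, 12.07 and 12.37. The VEH-HI arrays were close together and all above the sham arrays, whereas EPO-HI 13 and 14 overlapped VEH-Sham 5. The difference between VEH-HI and VEH-Sham was 0.59 ± 0.10, or 1.50-fold (limma adjusted p = 0.000928), and 0.31 against VEH-Sham 5.

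The P-stalk is the flexible arm of the large subunit that recruits the translation factors. Rplp0, its scaffold (1419441_at), read 12.70, 12.55, 12.57, 12.49 and 13.03 on the sham arrays and 12.99, 13.04, 13.08, 13.31 and 13.39 on the VEH-HI arrays. VEH-HI 6 lay just below VEH-Sham 5, so the groups overlapped by that pair; the rise was 0.49 ± 0.11 (limma adjusted p = 0.00373) and 0.13 against VEH-Sham 5. Rplp2, a stalk protein bound to Rplp0 (1415879_a_at), read 12.55, 12.38, 12.28, 12.27 and 12.56 on the sham arrays and 12.86, 12.73, 12.68, 12.91 and 12.93 on the VEH-HI arrays. Its groups did not overlap, with a rise of 0.41 ± 0.09 (adjusted p = 0.00349) and 0.26 against VEH-Sham 5. Under quantile normalization the difference was 0.17 and did not pass (adjusted p = 0.0816). Rpl12, which sits at the base of the stalk, differed by 0.17 ± 0.16 and did not pass (1435655_at, adjusted p = 0.477). It read 6.11 on VEH-Sham 5 and 6.81 to 7.09 on VEH-Sham 1 to 4. Rpl14, with one of the longer pyrimidine runs printed above, differed by 0.07 ± 0.17 (1422128_at, adjusted p = 0.803).

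The probe set of Rpl39 went the other way. Rpl39 is a very small protein that lines the exit tunnel for the growing chain. It had only 1 probe set, which was among the dimmer members with a mean of 7.81. Its probe set (1423032_at) read 8.20, 8.43, 7.69, 8.23 and 7.82 on VEH-Sham 1 to 5, 7.42, 7.37, 7.73, 7.34 and 7.59 on VEH-HI 6 to 10, and 7.93, 7.83, 7.79, 8.27 and 7.54 on EPO-HI 11 to 15. VEH-Sham 3 was the low sham array and overlapped VEH-HI 8, and the EPO-HI arrays lay mostly within the sham range. Between VEH-Sham and VEH-HI the value fell by 0.59 on the log2 scale (SE 0.15, limma adjusted p = 0.00845), and the difference from VEH-Sham 5 was -0.33. With array medians made equal the difference was -0.28 and did not pass (adjusted p = 0.154). Its paralog Rpl39l, known from male germ cells, differed by -0.61 ± 0.25 and did not pass (1423327_at, adjusted p = 0.0803). Without VEH-Sham 5 the difference of Rpl39l was -0.79 with an adjusted p of 0.0116, whereas VEH-HI stood 0.12 above VEH-Sham 5.

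The remaining paralogs moved less. Rpl22l1, a paralog of Rpl22 that can replace it in the large subunit, rose by 0.34 ± 0.12 (1417126_a_at, limma adjusted p = 0.0409) and stood 0.21 above VEH-Sham 5. It read 11.76, 11.85, 11.67, 11.57 and 11.89 on the sham arrays and 12.11, 11.98, 11.81, 12.59 and 11.96 on the VEH-HI arrays. VEH-HI 9 was the highest array and VEH-HI 8 lay within the sham range; without VEH-HI 9 the difference was 0.22 and did not pass (adjusted p = 0.108). Rpl22 itself rose by 0.39 in its brightest probe set. Rpl7l1, a relative of Rpl7, differed by 0.23 ± 0.09 (1452049_at, adjusted p = 0.0743, and 0.0465 without VEH-HI 8), and Rps4l, a relative of Rps4x, by 0.23 ± 0.16 (1452730_at, adjusted p = 0.321).

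**Figure D3:**
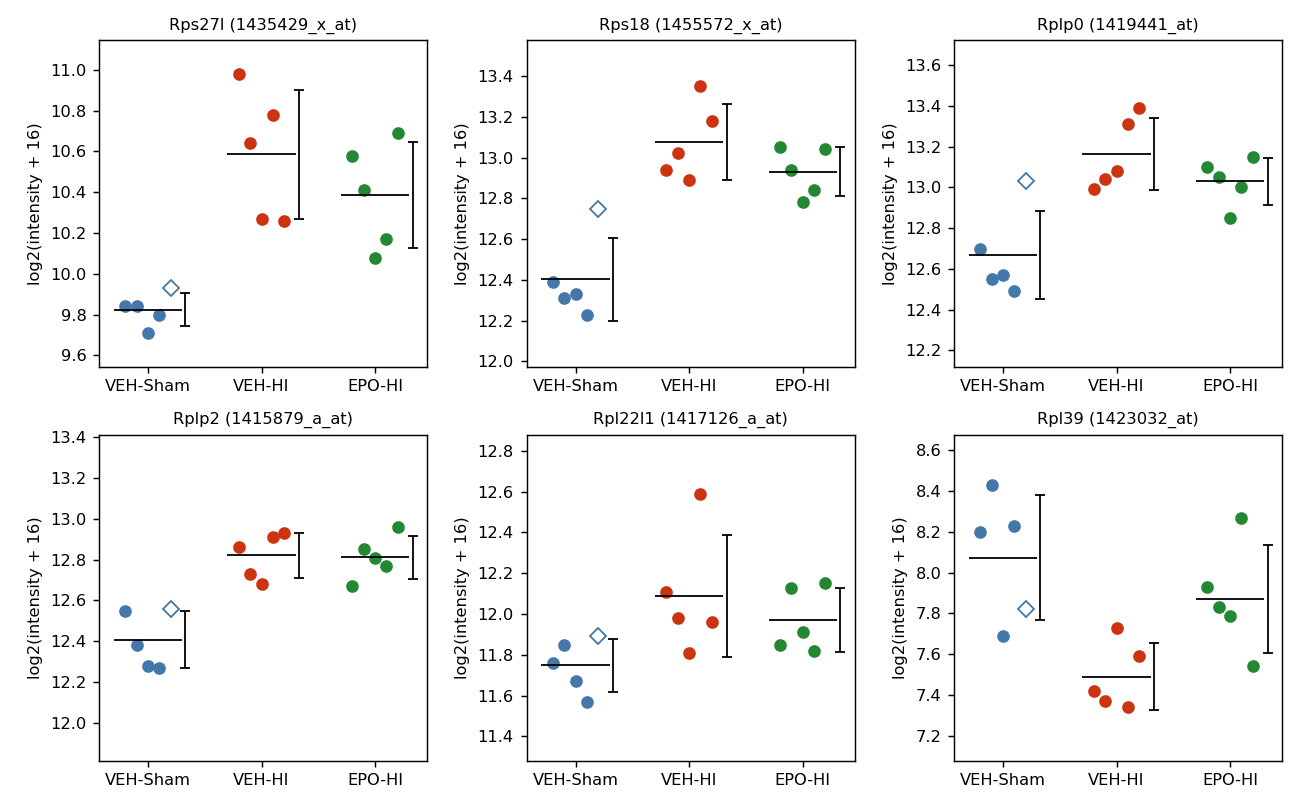
Log2(intensity + 16) on each of 15 arrays for the brightest probe set of Rps27l, Rps18, Rplp0, Rplp2, Rpl22l1 and Rpl39; points are arrays, the open diamond is VEH-Sham 5, lines are group means and bars SD (n = 5). Rps27l read 9.71 to 9.93 on sham arrays and 10.08 to 10.98 on injury arrays. The group mean of Rpl39 was lowest in VEH-HI, with overlap between the arrays of the groups.

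Probe sets of a gene did not always move together. Of the 21 genes with more than 1 tested probe set, Rps9, which lies at the mRNA entry side of the small subunit, was the only one with calls in opposite directions. One of its probe sets (1433689_s_at) rose by 0.36 ± 0.09 (limma adjusted p = 0.00692). It stood 0.12 above VEH-Sham 5, and under quantile normalization the difference was 0.16 and did not pass (adjusted p = 0.0515). The other (1434624_x_at) read 10.08, 9.63, 8.43, 9.34 and 8.49 on VEH-Sham 1 to 5 and 8.73, 8.45, 8.31, 8.60 and 8.23 on VEH-HI 6 to 10. Its difference was -0.73 ± 0.23 (adjusted p = 0.0269) but -0.03 against VEH-Sham 5, and the high sham arrays were VEH-Sham 1, 2 and 4.

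Large rises that shrank against VEH-Sham 5 were also seen, in genes picked for this after their values were seen. Rpl22 rose by 0.96 in 1416603_at, and 0.16 of it stood against VEH-Sham 5. For Rps15, a small subunit protein, the rise was 0.93 in 1416089_at and 0.14 against VEH-Sham 5, whereas its other probe set (1416088_a_at) rose by 0.35 and stood 0.24 above VEH-Sham 5. The part of RNA integrity in these values was not tested.

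By kind of probe set, 26 of the 28 members ending in _a_at rose, which read several transcripts of 1 gene, where 17.0% of all tested probe sets of that kind rose. Of the 38 ending in _x_at, which hold probes that can match other sequences, 27 rose and 1 fell, where 18.0% of that kind rose and 15.9% fell. Of the 23 ending in plain _at 8 rose and 1 fell, with a median of 0.23, where 7.63% of that kind rose and 13.5% fell. Of the 3 ending in _s_at 2 rose, where 12.9% of that kind rose. The plain kind held many of the dim probe sets. The 102 tested ribosomal protein probe sets with several symbols, which were not members, had 75 rises, 6 falls and a median of 0.40.

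**Figure D4:**
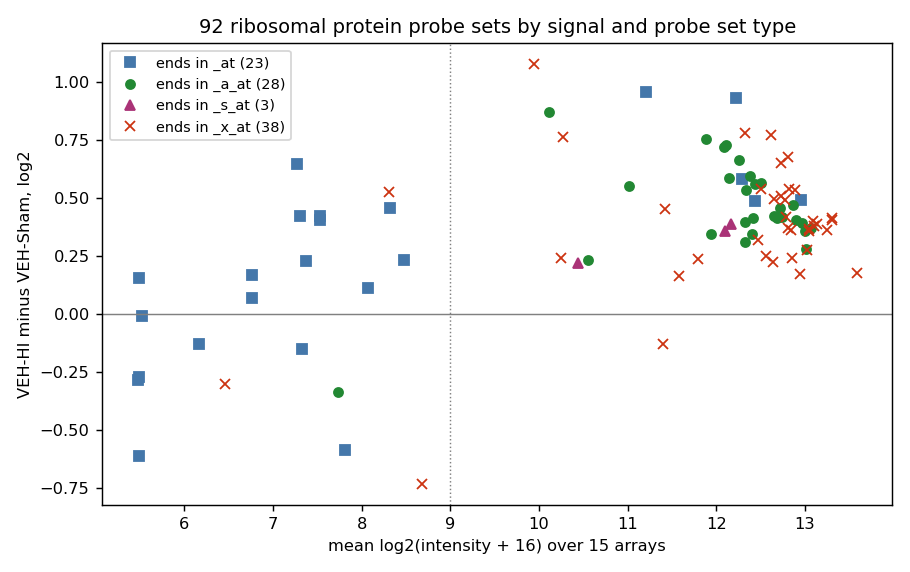
Log2 difference between VEH-HI and VEH-Sham (n = 5 arrays each) against mean log2(intensity + 16) over 15 arrays for the 92 tested ribosomal protein probe sets, coloured by kind of probe set. Among probe sets with a mean of at least 9 the median was 0.41, and among those below 9 it was 0.09 with a wide scatter.

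Erythropoietin before hypoxic ischemia gave no called difference from vehicle in any member. Limma passed 0 of the 92 members and 0 of all 27022 tested probe sets (0%). At an unadjusted p under 0.05 there were 6 members, against 3.94% of all tested probe sets. The differences between EPO-HI and VEH-HI were small and mostly of 1 sign: 84 of 92 members lay below 0, against 51.5% of all tested probe sets, with a median of -0.09 over the members and a range of -0.60 to 0.38. Of the 70 brighter members 69 lay below 0. Other bright probe sets leaned the same way, since 178 of the 241 non-members with a mean of at least 12 (73.9%) lay below 0, with a median of -0.04. In 0 of the 92 members did the EPO-HI and VEH-HI arrays separate without overlap, where 0.392% of all tested probe sets lay wholly below and 0.429% wholly above. The members shared their array-to-array deviations, so their common sign is no count of independent results.

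The 6 members at the low unadjusted p were probe sets of Rps25, Rpl37a, Rpl39, Rps6, Rpl12 and Rpl27. Among them 5 belonged to the 22 dimmer members and 1 to the 70 brighter ones. The Rps6 probe set was 1453466_at and not 1416142_at, which is described above. Rps25, a small subunit protein used for initiation at some viral RNAs, read 7.72, 7.60, 7.30, 7.60 and 7.68 on VEH-HI 6 to 10 and 7.47, 7.36, 6.92, 6.99 and 7.21 on EPO-HI 11 to 15 (1430978_at). Its sham arrays read 7.19, 7.29, 7.20, 7.06 and 7.04, so that EPO-HI arrays lay above, within and below the sham range, and VEH-HI 8 overlapped the EPO-HI arrays. The difference between EPO-HI and VEH-HI was -0.39 ± 0.12 and did not pass (limma adjusted p = 1.00). Rpl39 was the only 1 of the 6 above 0, with 0.38 ± 0.15. For genes with large rises after injury the differences were: -0.20 ± 0.13 for Rps27l, -0.15 ± 0.11 for Rps18, -0.19 ± 0.10 for Rpl8 and -0.01 ± 0.09 for Rplp2.

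**Figure D5:**
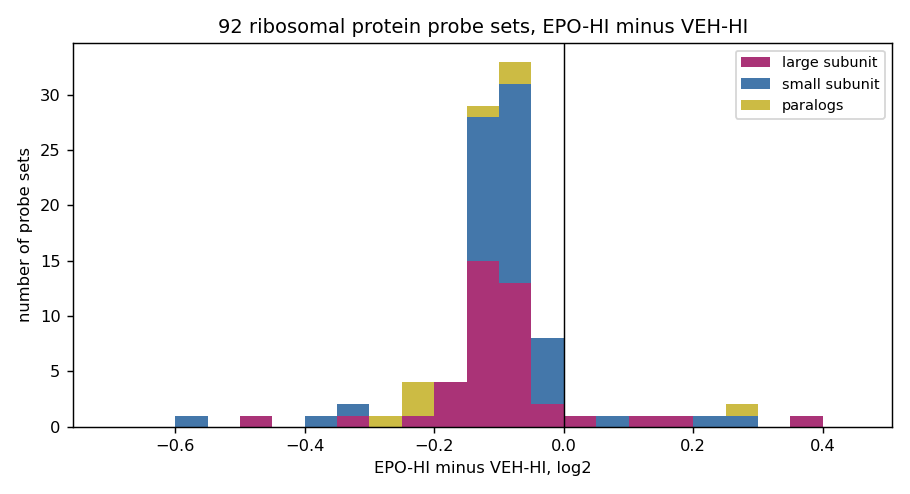
Histogram of the log2 difference between EPO-HI and VEH-HI (n = 5 arrays each) over the 92 tested ribosomal protein probe sets, stacked by large subunit, small subunit and paralogs; the vertical line marks 0. 84 of the 92 lie below 0, around a median of -0.09, and none passed the limma adjusted threshold.

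Set against sham, the arrays with erythropoietin and injury showed the rise as well. This comparison shares the sham arrays with the first 1, so its counts are no second line of support. Of the 92 members 49 rose and 1 fell, against 7.42% and 10.9% of all tested probe sets, with a median of 0.30 over the members and -0.05 over all. By gene 24 of 46 rose and 0 fell, where 8.86% of all genes rose and 9.46% fell. Rps26 rose by 0.55 (limma adjusted p = 0.00288), Rps18 by 0.53 (adjusted p = 0.00406) and Rps27l by 0.56 (adjusted p = 0.00848). Rpl39 differed by -0.20 and did not pass (adjusted p = 0.336). All EPO-HI arrays lay above all sham arrays in 17 members (3.16% of all tested probe sets) and above VEH-Sham 5 in 32 (17.9%). Against VEH-Sham 5 alone the median was 0.11 and 0 members passed, with 4 at an unadjusted p under 0.05, against 4.33% of all probe sets. The count of 50 calls moved with single arrays: it was 30 without VEH-Sham 2, 29 without VEH-Sham 3, 28 without VEH-Sham 4, and 30 without EPO-HI 11 or EPO-HI 15.

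The members varied together across arrays within their groups. After group means were removed, the mean correlation between pairs of the 70 brighter members was 0.56 over 15 arrays and 0.61 over the 10 injury arrays. Some of these pairs were probe sets of the same gene. With 1 probe set for each of the 46 genes the mean correlation was 0.38 and 0.43, and over all 92 members it was 0.30 and 0.37. It was 0.38 and 0.45 among the 241 other very bright probe sets, 0.10 and 0.06 among the 22 dimmer members, and 0.01 and 0.00 over all tested probe sets. These pairs share arrays, scaling and brightness. A further correlation left the group means in, so differences between groups enter it. By it, the probe sets outside the family most like the mean of the 46 genes belonged to Psmb4 (Pearson r = 0.959 over 15 arrays), Cox6c (0.958), the predicted gene Gm12338 (0.957), Rpsa (0.956) and Fau (0.954). Rpsa and Fau encode ribosomal proteins whose symbols fall outside the naming rule.

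Other genes of the translation machinery were counted from fixed lists, each gene by its brightest probe set. Over all 13168 genes so represented, 11.9% rose and 11.5% fell. Of 17 tested genes with TOP mRNAs or bound to ribosomes, such as elongation factors, 11 rose and 0 fell, with a median of 0.33 and 0.16 against VEH-Sham 5. Eef1d, a subunit of elongation factor 1, rose by 0.74, Fau by 0.61, Rpsa by 0.55 and Pabpc1, the poly(A)-binding protein, by 0.53. Mitochondrial ribosomal proteins, which are no part of cytosolic ribosomes, had 33 rises and 1 fall among 76 genes, with a median of 0.29 and 0.11 against VEH-Sham 5. Of 35 ribosome biogenesis genes 9 rose and 0 fell, with a median of 0.18 and 0.11 against VEH-Sham 5, and among them were Nob1 (0.67), Gar1 (0.64) and Nhp2 (0.58), which process or modify ribosomal RNA. Of 19 tested initiation and mTOR genes 1 rose and 1 fell. Myc, a driver of ribosome production, rose by 0.66 (limma adjusted p = 0.013) but differed by -0.03 from VEH-Sham 5. Eif4ebp2, a repressor of cap-dependent initiation, fell by 0.46 on the log2 scale (limma adjusted p = 0.019). Its VEH-HI mean nevertheless stood 0.06 above VEH-Sham 5.

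Some markers of cell types moved in the same comparison, in which 11.9% of all genes rose and 11.5% fell. Of 8 reactive astrocyte genes 6 rose, with a median of 1.29 and 1.43 against VEH-Sham 5, and of 10 tested microglial and macrophage genes 6 rose and 1 fell, with a median of 0.53 and 0.69 against VEH-Sham 5. The summed intensity of the microglial and macrophage list was 2292 to 2810 on VEH-Sham 1 to 4, 2647 on VEH-Sham 5, 3208 to 4819 on VEH-HI and 2594 to 3796 on EPO-HI. Of 8 astrocyte genes 5 rose, with a median of 0.41 but 0.12 against VEH-Sham 5. Of 13 tested neuronal genes 0 rose and 3 fell, with a median of -0.15 and -0.24 against VEH-Sham 5. Oligodendrocyte genes had 0 rises and 1 fall among 6, endothelial genes 2 rises and 1 fall among 6, and blood genes 1 rise among 3. Forebrain region genes were tested for 6 of 8 and hindbrain genes for 3 of 8, and none of them passed (unadjusted p under 0.05 in 2 of each). A comparison between groups cannot check the tissue label, since all groups may share the same region. The part of these cell types in the ribosomal protein values was not tested.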

How the data were processed

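The table as deposited gives 1 linear intensity for each probe set on each array, scaled by the authors so that the mean with 2% trimmed at each end is 150.0 on each array, as read from the values. No source used here names the software. Gene symbols came from the platform's annotation, updated by gene number against GRCm38.p6: of 45037 probe sets 34945 had 1 symbol, 932 several and 9160 none.

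Intensities were converted to log2(intensity + 16). The 60% of non-control probe sets with the highest mean (27022, mean of at least 5.46) entered 1 model with 3 group means in limma 3.58.1 under R 4.3.3 (eBayes with trend, two-sided, Benjamini-Hochberg), tested on simulated data first. The brightest tested probe set stood for its gene.

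The members and gene lists were chosen with earlier results of these data known. Genes were named by largest rise and fall, smallest p after erythropoietin, P-stalk or paralog status, disagreement of probe sets and distance of VEH-Sham 5. The number of arrays limits the precision. Alternatives covered the pseudocount, normalization, filter, fit, sham arrays and each array left out.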

Additional observations from a re-analysis of the deposited data

Results flagged for a closer look

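Dixon's test was applied to 96 groups of 5 arrays, and 7 had an array far from the other 4. Chance gives about 1 in 20 for independent groups, whereas these groups share arrays. VEH-Sham 5 stood apart in 4 of the 7. Its median intensity was 39.97 where the nearest sham array had 55.43. On it Rpl12 read 6.11 (nearest 6.81), Rps19 read 12.42 (nearest 11.99) and Rps26 read 12.36 (nearest 11.99). Rpl12 and Rps19 had been named in part for the distance of VEH-Sham 5 from the other sham arrays, so that choice favoured their flags. The other 3 were Rps25 on VEH-HI 8 at 7.30 (nearest 7.60), Rpl39l on EPO-HI 13 at 4.75 (nearest 5.53) and Rpl7l1 on EPO-HI 11 at 8.67 (nearest 8.49).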

How the results depend on the processing

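For VEH-HI against VEH-Sham, 65 member probe sets passed. The count was 43 under quantile normalization, 9 of 23 with plain _at probe sets only, 0 with VEH-Sham 5 as the only sham array and 0 with the term for VEH-Sham 1 to 4. The median of 0.40 became 0.19, 0.23, 0.21 and 0.21 in that order, and 0.71 with equal array medians. Leaving out 1 array gave counts of 57 to 67 and medians of 0.35 to 0.45. For EPO-HI against VEH-Sham, the count of 50 became 32, 6, 0 and 0 in the same order, and the median of 0.30 became 0.095 with plain _at probe sets, 0.11 with VEH-Sham 5 alone or with the term, and 0.66 with equal medians. Leaving out 1 array gave 28 to 61 and medians of 0.27 to 0.37. For both comparisons, shares of all tested probe sets called under quantile normalization or with 1 array left out are not given beside these counts. For EPO-HI against VEH-HI the count was 0 in every setting tried, and the median of -0.09 ran from -0.12 to -0.05 with 1 array left out. The causes were not tested, except that a single sham array or fewer probe sets lowers a count by construction.

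Some single genes changed sign. In VEH-HI against VEH-Sham these were Rps24 under quantile normalization (-0.073), Rpl39l with the term for VEH-Sham 1 to 4 (0.12), and Rpl14 with arrays centred on bright non-members (-0.079) and with 1 array left out (-0.064 without VEH-HI 7 to 0.18 without VEH-Sham 2, and -0.0079 without VEH-Sham 3). In EPO-HI against VEH-Sham they were Rpl39 and Rpl12 with equal medians (0.14 and 0.13), with VEH-Sham 5 alone (0.053 and 0.48) and with the term (0.053 and 0.48), and Rpl39l with the term (0.40). Rpl22l1 no longer passed when any of VEH-Sham 1, 2, 3 or 4 was left out, without VEH-HI 6 or VEH-HI 9, under quantile normalization, without the filter, without the trend, in the fit on the compared groups alone and with arrays centred on bright non-members. No paired analysis was possible because the replicate numbers run from 1 to 15 through the series. Depth is not recorded for arrays, and dim probe sets were measured with the wider spread, a median SD within groups of 0.29 against 0.16 for the brighter members.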
